A study of Mus musculus with 6 samples.

Results

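The comparison set the aortae of ApoE-/- mice on a high-fat diet, 2 libraries, against the aortae of all mice on chow, 4 libraries, which together are all 6 libraries of the series. The high-fat mice were 3 months old when the diet began and stayed on it for 3 months. The chow side joined 2 libraries of ApoE-/- mice with 2 libraries of wild-type C57BL/6J mice, because the study's design text treats both as the control. All mice were of the C57BL/6 strain, and the ApoE-/- allele was shared by the high-fat libraries and the ApoE-/- chow libraries. The contrast therefore holds the diet together with a difference in genotype from the C57BL/6J libraries. The labels give no age for the chow mice, no sex, no diet composition and no number of mice per library. Nothing in the labels says that the 2 libraries of a group came from separate animals, so the p-values measure the spread between libraries, which may be technical.

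ApoE is the apolipoprotein through which liver receptors clear remnant lipoproteins, and mice that lack it accumulate cholesterol in the blood and develop plaques in the aorta, faster on a high-fat diet. A plaque gathers lipid-laden macrophages, called foam cells, together with smooth muscle cells that lay down new matrix. A circular RNA (circRNA) forms when the end of an exon is spliced back to the start of an earlier one, and only reads that cross this back-splice junction separate it from the linear transcript of its host gene. Each library's deposited list gave, for every circRNA, the reads across its junction and a larger read count for the stretch between its ends. The difference of both, called interval reads here, was summed per host gene. It was taken to follow mostly the linear transcript of the part of the gene that the listed circRNAs span. That was not tested, and reads from inside a circRNA may be included. In Arhgap32 chr9:32246447-32250787, interval reads were 632 and 154 in high-fat aorta against 162, 247, 378 and 25 in chow aorta. Its junction reads moved with them, at 268 and 82 against 82, 124, 234 and 16. The Ppbp interval differed, with 76 and 96 interval reads in high-fat aorta beside 2 and 0 junction reads. The sources used here do not give how reads of overlapping intervals were shared out, and genes without a listed circRNA could not be measured.

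The libraries held 69130844 to 77352690 reads and differed far more in junction reads. High-fat 1 had 34805 junction reads and high-fat 2 had 16511. ApoE-/- chow 1 and 2 had 14575 and 14519, C57BL/6J 1 had 26605 and C57BL/6J 2 only 3706. Per 1000000 library reads the junction total was 336 ± 170 (SD, n = 2) in high-fat aorta and 201 ± 130 (SD, n = 4) in chow aorta, a ratio of 1.67 that was within the spread (two-sided exact permutation test, p = 0.333, the smallest possible being 0.0667). The ratio was 1.07 without high-fat 1 and 2.32 without C57BL/6J 1. The RNAs Rpph1, Rmrp and Rn45s and the mitochondrial chromosome took from 28.7% of interval reads in C57BL/6J 2 to 69.8% in C57BL/6J 1 and were left out. C57BL/6J 2 stood apart by its few junction reads, and the columns of ApoE-/- chow 1 carry a C57BL/6J name although its labels say ApoE-/-. A call that was lost without either of them is given with that value.

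The targeted gene was read through a single listed interval of 71 bases inside Apoe (GRCm38, chr7:19696367-19696437). It had 103 and 128 reads per 1000000 kept interval reads (CPM) in high-fat aorta, 189 and 137 in ApoE-/- chow and 353 and 244 in C57BL/6J aorta. The 4 ApoE-/- libraries were below both C57BL/6J libraries, ApoE-/- chow 1 included. Which part of the gene the allele deletes is not stated in the labels, so this short stretch does not check the genotype. Markers of smooth muscle, the main cell of the aortic wall, were present in every library: 5 of 7 had listed intervals and summed to between 5495 CPM in C57BL/6J 2 and 26652 CPM in C57BL/6J 1. None of 5 Schwann cell markers was listed.

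Interval reads rose in high-fat aorta for 2 of 6117 host genes tested: Trpc6, a cation channel opened by diacylglycerol that carries calcium into smooth muscle cells, and Ppbp, the precursor of a platelet chemokine. They make up 0.0327% of genes tested (edgeR's quasi-likelihood test, Benjamini-Hochberg adjusted p under 0.05), and no gene fell. At an unadjusted p under 0.05, 113 genes (1.85%) were higher and 81 (1.32%) lower; DESeq2 called 4 genes higher and 0 lower. In 317 genes (5.18%) both high-fat libraries lay above all 4 chow libraries, and in 314 (5.13%) both lay below. Between the 2 chow groups, ApoE-/- against C57BL/6J, 0 of the same genes passed the test. Of the 42 named values for which the chow groups were compared, 0 passed and 2 had an unadjusted p under 0.05.

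**Figure D1:**
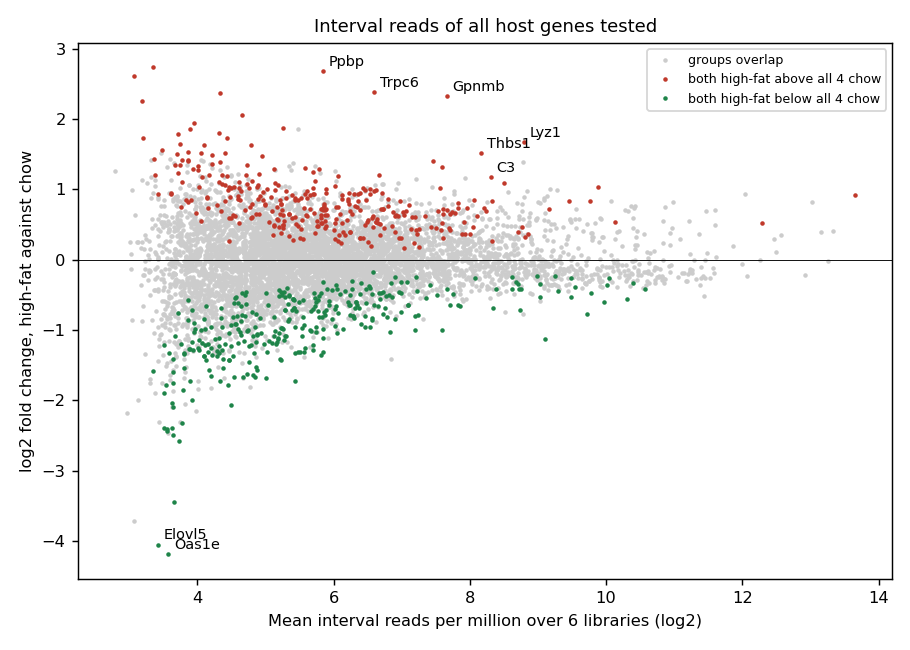
Interval reads of 6117 host genes, with the mean level over 6 libraries (log2 CPM) on the horizontal axis and the log2 fold change of high-fat against chow aorta on the vertical axis. Red points are the 317 genes with both high-fat libraries above all 4 chow libraries and green points the 314 with both below; Ppbp, Trpc6 and Gpnmb stand above genes of like level.

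Trpc6 had 229 and 192 CPM in the high-fat libraries. It had 42.8 and 36.7 CPM in ApoE-/- chow and 46.1 and 34.8 CPM in C57BL/6J aorta. Both high-fat libraries were thus far above a tight set of chow libraries, and the chow groups differed by a log2 fold change of -0.02. The log2 fold change of high-fat against chow was 2.39 ± 0.36 (SE; edgeR, adjusted p = 0.0023). The unscaled reads behind it were 174 and 112 against 29, 23, 23 and 20. The adjusted p was 0.161 without high-fat 1 and 0.0544 without ApoE-/- chow 1, and between 1.06e-05 and 0.161 over all alternatives.

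The change in Trpc6 lay mostly in 1 of its listed intervals, chr9:8634047-8658377, inside the gene on chromosome 9. That interval had 169 and 99 reads in high-fat aorta and 20, 14, 16 and 16 in chow aorta. A neighbouring interval, chr9:8609700-8626775, had 4 and 6 reads against 9, 7, 7 and 4, so its groups overlapped. Another, chr9:8655177-8680653, had 1 and 7 reads against 0, 2, 0 and 0. Both held too few reads to show whether they changed. The first interval also overlaps part of Gm32014, a long non-coding RNA gene of the RefSeq annotation, and reads of both genes cannot be told apart without strand. Back-splice junctions of Trpc6 were seen mainly in the high-fat libraries as well, with 37 and 12 reads against 0, 0, 5 and 0, of which 27 and 6 against 0, 0, 5 and 0 came from the circRNA of that same interval. More cells of a type and more RNA per cell cannot be told apart in whole aorta.

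Ppbp had 99.9 and 164 CPM in the high-fat libraries against 16.2 and 20.7 CPM in ApoE-/- chow and 20.03 and 24.4 CPM in C57BL/6J aorta. The 2 high-fat libraries did not overlap the chow libraries, which again lay close together. The log2 fold change was 2.69 ± 0.42 (SE; edgeR, adjusted p = 0.0023), from 76 and 96 unscaled reads against 11, 13, 10 and 14. All of them fell in 1 interval of 476 bases, chr5:90769063-90769538, within the gene on chromosome 5. Its junction was read only in high-fat 1, with 2 reads. The adjusted p was 1.00 without high-fat 2 and 0.0544 without ApoE-/- chow 1, with a range from 3.45e-05 to 1.00 over all alternatives.

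Of 28 platelet and erythroid genes 14 could be tested; 7 were above 0 and 7 below, with a median log2 fold change of 0.10 beside -0.02 over all host genes, and only Ppbp passed. Ppbp and Thbs1 lay above all chow libraries, 14.3% of the list beside 5.18% of all genes, and Sptb below, 7.14% beside 5.13%. The median was -0.34 without high-fat 2. The haemoglobin gene Hba-a2 had 222 and 1269 CPM in high-fat aorta against 525, 139, 361 and 112 CPM in chow aorta. Hbb-bt had 626 and 1436 CPM against 1208, 501, 944 and 625 CPM. Both were highest in high-fat 2 and within the chow range in high-fat 1, so their groups overlapped. Itgb3, the integrin subunit of the platelet fibrinogen receptor, had 841 and 1635 CPM against 356, 657, 1969 and 298 CPM. Of 6 markers of platelets and red cells 3 had listed intervals, and Pf4, Itga2b and Hbb-bs had none. Ppbp and Slc4a1, the 2 listed markers that reached the minimum for testing, summed to 108 and 180 CPM in high-fat aorta and to between 28.0 and 45.3 CPM in chow aorta. That sum holds Ppbp itself. The part of blood in the Ppbp result was not tested.

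The promoters of the 3 genes with an interval that passed when each interval was tested by itself are shown because the letters next to an annotated start can be searched for motifs; they are RefSeq windows of GRCm38.p6, from 250 bases before to 50 bases after a start. For Ppbp and Gpnmb that start is the first base of the gene record. For Trpc6 the window lies wholly inside the gene record, which begins at 8543867, so its search does not cover the bases before that point. That of Trpc6 lies at chr9:8543892-8544191, that of Ppbp at chr5:90768268-90768567 and that of Gpnmb, described next, at chr6:49036268-49036567, all on the plus strand. Capitals mark the motif matches found.
Trpc6: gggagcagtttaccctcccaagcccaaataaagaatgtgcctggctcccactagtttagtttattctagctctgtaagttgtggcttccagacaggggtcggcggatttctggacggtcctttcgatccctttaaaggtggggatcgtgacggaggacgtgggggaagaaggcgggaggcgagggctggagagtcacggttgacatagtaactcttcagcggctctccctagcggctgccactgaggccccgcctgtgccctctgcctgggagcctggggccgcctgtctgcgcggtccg
Ppbp: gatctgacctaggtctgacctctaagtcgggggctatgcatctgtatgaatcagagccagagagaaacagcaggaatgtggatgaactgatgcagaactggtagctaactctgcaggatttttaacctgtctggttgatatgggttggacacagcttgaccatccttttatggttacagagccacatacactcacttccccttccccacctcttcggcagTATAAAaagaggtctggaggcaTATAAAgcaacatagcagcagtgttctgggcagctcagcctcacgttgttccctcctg
Gpnmb: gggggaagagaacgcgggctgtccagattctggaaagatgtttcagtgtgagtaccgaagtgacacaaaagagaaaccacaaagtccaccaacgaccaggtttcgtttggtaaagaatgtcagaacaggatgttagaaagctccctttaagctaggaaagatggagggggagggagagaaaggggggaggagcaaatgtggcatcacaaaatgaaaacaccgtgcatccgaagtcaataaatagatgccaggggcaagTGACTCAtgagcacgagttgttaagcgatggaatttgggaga
Each window was searched on both strands for 6 motifs, and the share of 32851 mouse promoter windows of the same length that hold each was counted. The TATA box, TATAAA, was found at 2 places in the Ppbp promoter and is in 13.6% of all promoters. The AP-1 motif, TGACTCA, was found once in the Gpnmb promoter and is in 5.2% of all promoters. The M-box of MITF-type factors, CATGTG, was in none of the 3 windows and is in 14.2% of all promoters. The E-box read by lysosomal regulators, CACGTG, was in none of them and is in 7.15%. A core of sites for the myeloid factor PU.1, GAGGAA, was in none of them and is in 28.3%. The motif of GATA factors, AGATAA, was in none of them and is in 11.2%. The Trpc6 promoter held no match to any of the 6. These matches describe the letters of each window.

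Next in order came a pair of macrophage genes, which were higher in both high-fat libraries but did not pass. Gpnmb, a membrane glycoprotein abundant in lipid-laden macrophages, had 372 and 499 CPM in high-fat aorta. It had 66.4 and 183 CPM in ApoE-/- chow and 38.1 and 57.5 CPM in C57BL/6J aorta, so the order of the 3 groups was high-fat, ApoE-/- chow, C57BL/6J, with ApoE-/- chow 1 only slightly above C57BL/6J 2. The log2 fold change was 2.32 ± 0.45 (SE; edgeR, adjusted p = 0.102). The chow groups themselves differed by 1.38 on the log2 scale with an unadjusted p of 0.016. Fitting 3 group means instead of 1 chow group gave an adjusted p of 0.00323, DESeq2 gave 0.0105, and the range over all alternatives ran from 6.15e-05 to 1.00.

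Both intervals of Gpnmb, on chromosome 6, were higher in high-fat aorta. The shorter, chr6:49042269-49042919, had 151 and 198 reads against 15, 55, 18 and 7. Tested by itself among 11459 intervals it passed, with a log2 fold change of 2.73 ± 0.54 (SE; edgeR, adjusted p = 0.0487), as did the Ppbp interval (adjusted p = 0.00937) and the large Trpc6 interval (adjusted p = 0.00563); these were all 3 that passed. The longer, chr6:49042790-49045456, had 132 and 94 reads against 30, 60, 1 and 26.

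Reads filed under Lyz1, a lysozyme gene, came to 734 and 898 CPM in high-fat aorta, 245 and 348 CPM in ApoE-/- chow and 286 and 146 CPM in C57BL/6J aorta. All chow libraries were well below both high-fat libraries. The log2 fold change was 1.67 ± 0.36 (SE; edgeR, adjusted p = 0.107, from 0.0151 to 1.00 over alternatives). The interval that held most of these reads, chr10:117277466-117288017, spans the whole of Lyz2, the lysozyme gene of macrophages, and only part of Lyz1. It had 508 and 494 reads against 131, 181, 112 and 53, so the symbol may not name the gene that gave the reads. The second interval had 50 and 31 reads against 35, 37, 31 and 31, and its groups overlapped.

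**Figure D2:**
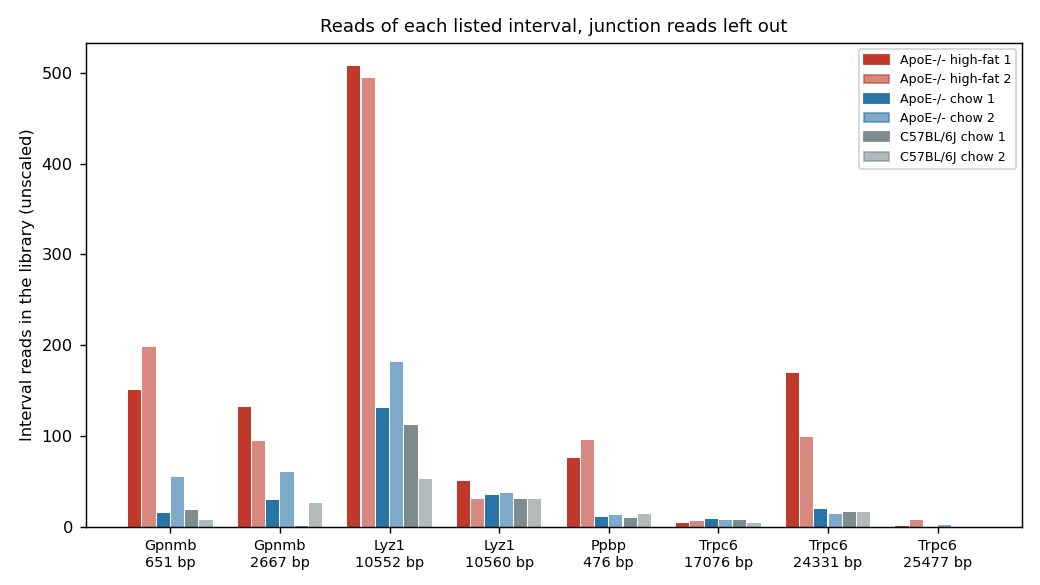
Unscaled interval reads per library for each listed interval of Gpnmb, Lyz1, Ppbp and Trpc6, with the length of the interval in bases under its gene. In Trpc6 the 24331-base interval holds most of the reads and of the difference (169 and 99 reads against 14 to 20), in Lyz1 the 10552-base interval.

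Other macrophage genes were mixed. Of 36 macrophage and foam cell genes listed, 14 could be tested, and 0 passed. Their median log2 fold change was 0.29 beside -0.02 over all host genes tested, and 0.10 to 0.45 when each library was left out in turn; 10 were above 0. Lyz1, Gpnmb and Ctsd lay above all chow libraries in both high-fat libraries and Mrc1 below, that is 21.4% and 7.14% of the list beside 5.18% and 5.13% of all genes. Ctsd, the lysosomal protease cathepsin D, had 400 and 722 CPM against 323, 378, 242 and 106 CPM (log2 fold change 1.09 ± 0.41 SE; edgeR, adjusted p = 0.999). Mrc1, a mannose receptor of resident macrophages, had 68.4 and 32.5 CPM against 72.3, 75.0, 132 and 74.9 CPM (-0.79 ± 0.43 SE, adjusted p = 0.999). Spp1, osteopontin, had 15.8 and 20.5 CPM against 5.90, 22.3, 2.00 and 8.71 CPM and overlapped. The 5 listed macrophage markers of 12 were Gpnmb, Lyz1, Spp1, Itgam and Emr1. They summed to 1267 and 1506 CPM in high-fat aorta and to between 329 and 700 CPM in chow aorta, mostly from Gpnmb and Lyz1. Of the 5 only these 2 lay above all chow libraries, so the sum does not stand for Emr1, Itgam and Spp1. Cd68, Csf1r, Trem2 and Lgals3 had no listed interval.

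**Figure D3:**
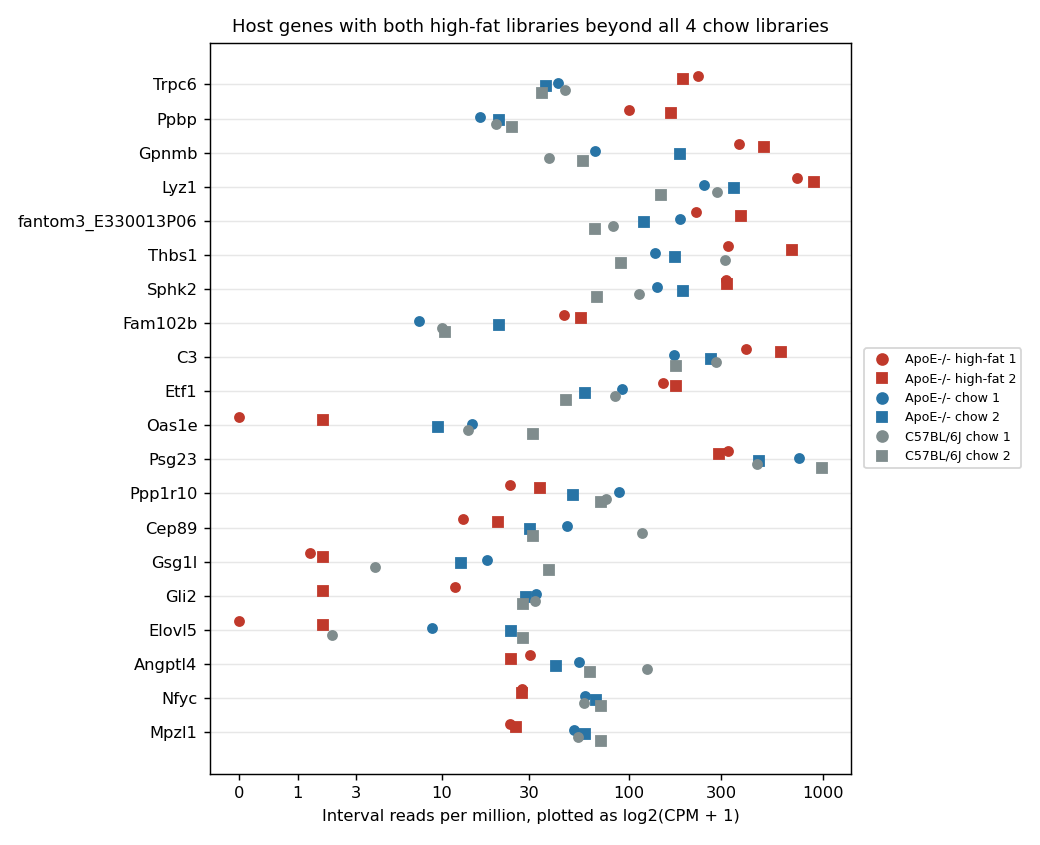
Interval reads per library of the 20 named host genes on a log2(CPM + 1) axis: 10 higher and 10 lower in both high-fat libraries than in all 4 chow libraries. Colours are the 3 groups and marker shapes the 2 libraries of a group; Trpc6 and Ppbp are the only ones past the test, with high-fat libraries at 229 and 192 CPM and at 99.9 and 164 CPM.

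The other 6 named genes above all chow libraries had an adjusted p of 0.999. Thbs1, a matricellular protein that activates TGF-beta, had 325 and 691 CPM against 137, 172, 313 and 90.6 CPM, a log2 fold change of 1.51 ± 0.42 (SE). High-fat 1 was only just above C57BL/6J 1 there. C3, the central complement component, had 404 and 609 CPM against 171, 266, 282 and 176 CPM (1.18 ± 0.36 SE). Sphk2, a kinase that makes sphingosine 1-phosphate, had 318 and 323 CPM against 140.2, 190, 112 and 68.0 CPM (1.33 ± 0.38 SE). Its only listed interval, chr7:45708245-45709841, is not wholly inside the gene, whose record begins at 45709463. The symbol may thus not name the gene that gave the reads. C3 and Sphk2 were both clear of the chow libraries by a factor smaller than for Trpc6. Etf1, the translation termination factor, had log2 fold change 1.21 ± 0.37 (SE), Fam102b 2.05 ± 0.59 and the transcript fantom3_E330013P06 1.41 ± 0.40. The chow groups differed for that last one too, by 1.03 on the log2 scale with an unadjusted p of 0.0471.

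Below all chow libraries, the 10 named genes also had an adjusted p of 0.999 and most had few reads. Angptl4, a secreted inhibitor of lipoprotein lipase, had 30.2 and 23.9 CPM against 54.6, 41.5, 124 and 62.7 CPM (-1.36 ± 0.50 SE). Nfyc, a subunit of the CCAAT-binding factor, had 27.6 and 27.4 CPM against 59.0, 67.0, 58.1 and 71.4 CPM (-1.21 ± 0.46 SE). Mpzl1, a cell-surface adhesion protein, had 23.7 and 25.6 CPM against 51.6, 59.0, 54.1 and 71.4 CPM (-1.26 ± 0.48 SE). All chow libraries were higher in these 3 genes, by the smallest margin in Angptl4, where ApoE-/- chow 2 was nearest. Gli2, a transcription factor of Hedgehog signalling, had 11.8 and 1.71 CPM against 32.5, 28.7, 32.1 and 27.9 CPM. Oas1e, of the interferon-induced oligoadenylate synthetase family, rested on 0 and 1 reads in high-fat aorta, and so did Elovl5, a fatty acid elongase. The others were Psg23, Ppp1r10, Cep89 and Gsg1l. The Psg23 interval, chr7:18608572-18648861, is not wholly inside its gene, whose record ends at 18616501.

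Matrix genes made the lists with the highest medians, without a member that passed. Of 23 provisional matrix genes 10 could be tested; 9 were above 0 and the median log2 fold change was 0.64, or 0.30 to 0.89 with 1 library left out. Thbs1, Tnxb and Tnc lay above all chow libraries, 30% of those tested beside 5.18% of all host genes. Fn1, fibronectin, had 3798 and 8522 CPM against 4204, 4377, 3033 and 1239 CPM (0.94 ± 0.42 SE; edgeR, adjusted p = 0.999), so only high-fat 2 was above every chow library. Of 24 collagens 15 could be tested; 14 were above 0 with a median of 0.55, which was -0.08 without high-fat 2 and 0.94 without high-fat 1. Col3a1, Col5a1 and Col5a2, fibrillar collagens of the vessel wall, lay above all chow libraries, 20% of the list beside the same 5.18%. Col3a1 had 6004 and 6576 CPM against 4292, 4761, 5681 and 2810 CPM. Col5a2 had 787 and 1202 CPM against 542, 742, 713 and 230.0 CPM. Summed over the list, collagen reads were 14417 CPM in high-fat 1, within the chow range of 7628 to 16226 CPM, and 23313 CPM in high-fat 2. The smooth muscle contractile genes behaved alike in this respect: 22 of 27 tested were above 0, with a median of 0.21 that was -0.02 without high-fat 2, and 0 lay beyond all chow libraries. Their summed reads were 43859 and 72272 CPM in high-fat aorta and 19836 to 64429 CPM in chow aorta, lowest in C57BL/6J 2. The part of this shift between libraries in the collagen values was not tested.

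Fat cell genes had the lowest median. Of 44 adipocyte and brown fat genes 29 were tested, 25 of them below 0, with a median log2 fold change of -0.30 that ran from -0.51 without high-fat 1 to -0.05 without C57BL/6J 1; 0 passed. Esrrg, Lpin1, Pparg and Angptl4 lay below all chow libraries, 13.8% of the list beside 5.13% of all host genes. Pparg, the nuclear receptor that drives fat cell formation, had 43.4 and 46.2 CPM against 102, 46.3, 48.1 and 81.9 CPM, so its groups were separated by less than 1 CPM. Lpin1, a phosphatidate phosphatase, had 80.2 and 76.9 CPM against 118, 164, 158 and 122 CPM (-0.84 ± 0.38 SE; edgeR, adjusted p = 0.999). Summed over the genes tested, reads were 11083 and 9138 CPM in high-fat aorta and 9766 to 14589 CPM in chow aorta. Of 7 adipocyte markers 6 had listed intervals, Adipoq not among them, and 5 reached the minimum for testing. Those 5 summed to 941 and 706 CPM in high-fat aorta and to between 460.0 and 1749 CPM in chow aorta, and their part in the list's values was not tested.

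Among 30 tested genes of cholesterol and lipoprotein handling the median was 0.11 and 0 passed. In 6 of them (20%) both high-fat libraries lay above all chow libraries, Lrp6, Abca1, Srebf1, Lipa and Npc1 among them, and in 2 (6.67%) below, Apoe among them. Over all host genes these shares were 5.18% and 5.13%, so the share below was near the background. Abca1, the exporter of cellular cholesterol, had 179 and 200.1 CPM against 123, 166, 140.2 and 68.0 CPM (0.61 ± 0.38 SE; edgeR, adjusted p = 0.999). Npc1, which carries cholesterol out of lysosomes, had 53.9 and 59.8 CPM against 26.6, 44.7, 34.1 and 17.4 CPM (0.88 ± 0.49 SE). The high-fat libraries were above the chow ones in both genes, and neither passed the test. Of 26 tested calcium and cation channel genes only Trpc6 passed; Trpm7 was the other one above all chow libraries, with 49.95 and 39.3 CPM against 38.4, 15.9, 32.1 and 12.2 CPM.

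**Figure D4:**
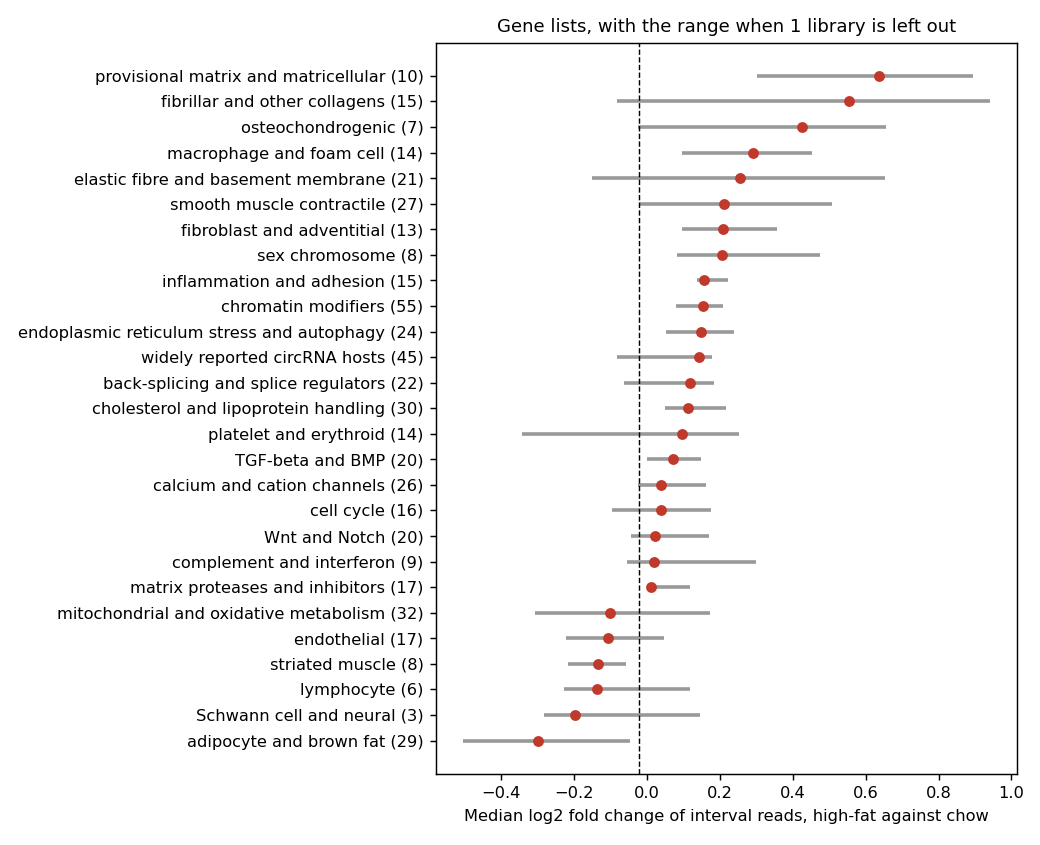
Median log2 fold change of interval reads, high-fat against chow aorta, for 27 gene lists with the number of genes tested in brackets. Grey bars run from the lowest to the highest median when 1 library was left out and the dashed line is the median of all host genes, -0.02; the bars of the collagens (-0.08 to 0.94) and smooth muscle genes (-0.02 to 0.51) reach 0 or below, that of provisional matrix (0.30 to 0.89) does not.

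At the level of single circRNAs, 1 of 1013 tested passed, a circRNA of Eefsec, the elongation factor that brings selenocysteine to the ribosome, and it was lower. It is 0.0987% of those tested; by the same edgeR test 0 passed as higher, with 33 (3.26%) higher and 19 (1.88%) lower at an unadjusted p under 0.05, and DESeq2 called 0 in either direction. In 117 circRNAs (11.5%) both high-fat libraries lay above all chow libraries and in 15 (1.48%) both lay below. These shares are not like for like, since a circRNA with 0 reads in any chow library cannot count as below. C57BL/6J 2 had only 3706 junction reads. The Eefsec circRNA, chr6:88355483-88358642, had 0 junction reads in both high-fat libraries. It had 29 and 13 in ApoE-/- chow, 0 in C57BL/6J 1 and 10 in C57BL/6J 2. C57BL/6J 1 thus overlapped the high-fat libraries although it held more junction reads than any other chow library. With the high-fat group set to a floor of 3 reads in all, or 64.3 CPM, the chow mean of 1314 CPM was 20.4-fold above it. The circRNA had 2420 CPM from 10 reads in C57BL/6J 2 and 0 in C57BL/6J 1, so 20.4-fold is no bound for each chow library. Its adjusted p by edgeR was 0.024 and ran from 0.00264 to 0.993 over alternatives (0.84 without high-fat 1, 0.463 without high-fat 2, 0.234 without ApoE-/- chow 1 and 0.979 without C57BL/6J 2). A longer circRNA that shares its upper end, chr6:88352446-88358642, was read only in C57BL/6J 1, with 6 reads. Interval reads of Eefsec were 134 and 118 CPM in high-fat aorta against 122, 169, 176 and 221 CPM, with no pass.

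Of 1259 hosts tested by summed junction reads, 2 passed as higher, 0.159%, and 0 as lower, with 31 (2.46%) and 19 (1.51%) at an unadjusted p under 0.05 (edgeR) and 0 by DESeq2. Both high-fat libraries were above all chow libraries in 139 hosts (11.0%) and below in 28 (2.22%). Here too, a host with 0 reads in any chow library cannot count as below. Of the 2 that passed, Esyt2, a tether between endoplasmic reticulum and plasma membrane, rested on 1 library. It had 202 junction reads in high-fat 1 and 1 in high-fat 2 against 10, 4, 2 and 1. Of the 202 reads 186 belonged to 1 circRNA, chr12:116317830-116324210, that no other library held. The groups overlapped, and the log2 fold change of 3.35 ± 0.76 (SE; adjusted p = 0.0184, up to 0.998 over alternatives) describes high-fat 1. Without that library, or without ApoE-/- chow 1, Esyt2 did not reach the minimum for testing. Its adjusted p was 0.17 without ApoE-/- chow 2, 0.0879 without C57BL/6J 1 and 0.998 without C57BL/6J 2.

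**Figure D5:**
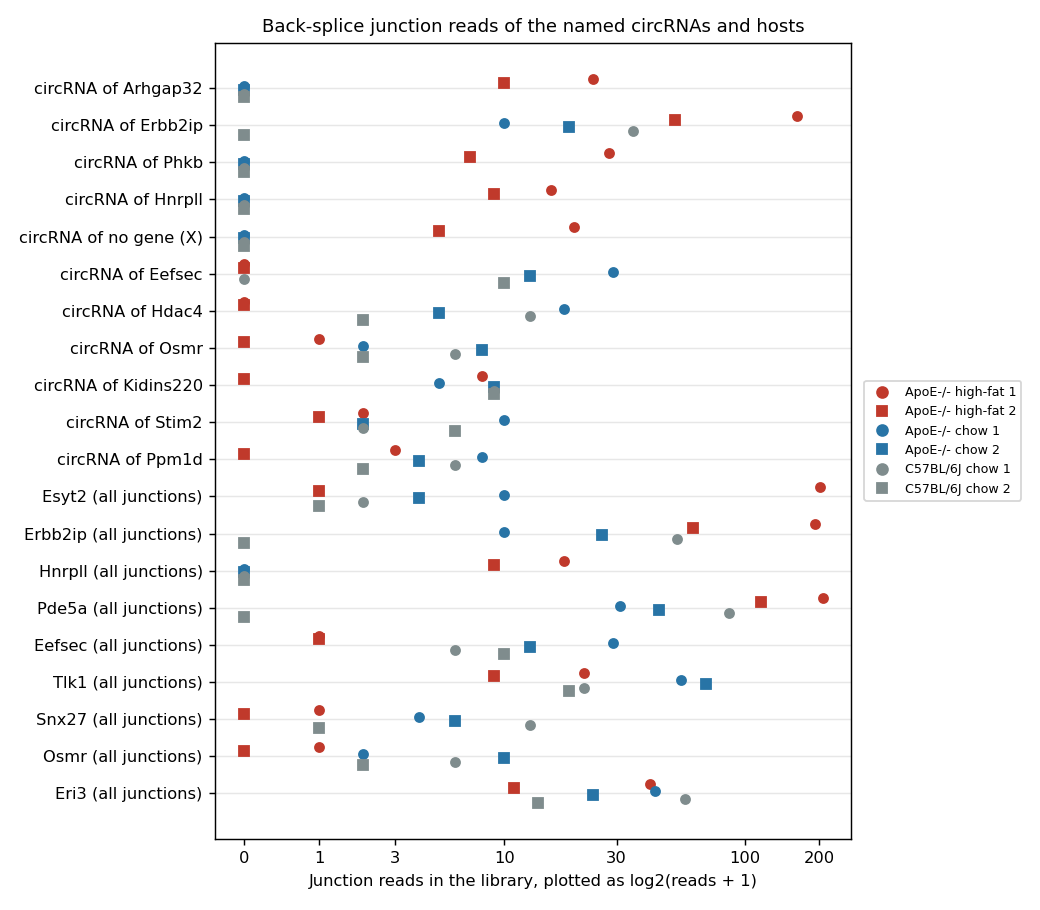
Back-splice junction reads per library, unscaled, on a log2(reads + 1) axis, for the circRNAs and hosts named on the vertical axis. The circRNA shown for each of Arhgap32, Phkb and Hnrpll, and that of an interval without a gene name, were at 0 in all 4 chow libraries. Other circRNAs of Arhgap32 and Phkb had chow reads. Esyt2 stands out in high-fat 1 only.

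Several circRNAs were seen in both high-fat libraries and in no chow library and did not pass. They reached the minimum of 5 junction reads in 2 libraries only through the high-fat libraries. Their fold bounds and p-values thus describe circRNAs picked where they are high. For Arhgap32, a GTPase-activating protein, the high-fat reads of chr9:32181842-32208265 were 24 and 10. That is 14.1-fold or more above a floor of 3 reads over the chow group (edgeR, adjusted p = 0.153). An Arhgap32 circRNA with the same start, chr9:32181842-32190061, had 38 and 9 reads against 0, 27, 31 and 0. For Phkb, a subunit of phosphorylase kinase, the high-fat reads of chr8:85875634-85901957 were 28 and 7, or 13.5-fold or more (adjusted p = 0.153). A Phkb circRNA with the same start, chr8:85875634-85879810, had 34 and 34 reads against 11, 38, 34 and 0. For Hnrpll, a splice regulator, the high-fat reads were 16 and 9, or 10.8-fold or more (adjusted p = 0.377). In all, 325 of 20411 circRNAs (1.59%) had reads in both high-fat libraries and no chow library, but 201 of them had at most 5 reads in total and 43 had at least 10. The converse is not like for like, since it asks for reads in 4 libraries rather than 2. Among the 4 is C57BL/6J 2, in which 1823 circRNAs had a junction read, against 8894 in high-fat 1. Reads in all 4 chow libraries and neither high-fat library were held by 3 circRNAs (0.0147%). Of these that of Hdac4, a histone deacetylase, at chr1:92148256-92148494 had 18 and 5 reads in ApoE-/- chow and 13 and 2 in C57BL/6J aorta (at least 9.85-fold lower in high-fat aorta; adjusted p = 0.449). Hdac4 interval reads overlapped, at 275 and 369 CPM against 285, 424, 254 and 368 CPM.

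Erbb2ip, the ERBB2-binding scaffold now called Erbin, had reads in most libraries. Its circRNA chr13:103884143-103889285 had 163 and 52 reads in high-fat aorta against 10, 19, 35 and 0, a log2 fold change of 2.25 ± 0.66 (SE; edgeR, adjusted p = 0.153). Scaled to junction totals it was 5325 and 3238 CPM against 675, 1284, 1333 and 0, so all chow libraries were lower. Pde5a, the phosphodiesterase that breaks down cGMP in smooth muscle, had 206 and 116 junction reads over the host against 31, 45, 86 and 0 (1.60 ± 0.51 SE, adjusted p = 0.261). Tlk1, a kinase of chromatin assembly, went the other way with 22 and 9 junction reads against 55, 70, 22 and 19 (-2.43 ± 0.67 SE, adjusted p = 0.0990). Of these, 0 and 0 against 48, 65, 0 and 18 came from 1 circRNA, chr2:70768862-70786995, so the fall lay in that circRNA, which C57BL/6J 1 also lacked. C57BL/6J 1 lay close to the high-fat libraries for Tlk1 at 854 CPM against 701 and 555, while the other chow libraries had 3742, 4851 and 4516. Scaling to plain totals without TMM factors brought Tlk1 and Eefsec past the threshold, for 2 hosts higher and 2 lower.

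The 10 circRNAs with the most reads did not pass. That of Nfix, a nuclear factor I gene, had 643 and 249 reads against 295, 403, 604 and 38. Of the 10, that of Elf2, an ETS transcription factor, alone lay above all chow libraries, with 9767 and 12827 CPM against 4657, 6691, 7923 and 3631 (0.97 ± 0.46 SE; edgeR, adjusted p = 0.871).

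Whether junction reads moved apart from the interval reads of the same host was tested with limma on their log2 ratio, centred on each library's median. Of 638 hosts 0 passed, with 24 at an unadjusted p under 0.05, 4 higher (0.627%) and 20 lower (3.13%). The ratio lay above all chow libraries in 35 hosts (5.49%) and below in 44 (6.9%). Morc3, a chromatin ATPase, had centred log2 ratios of 2.83 and 3.75 in high-fat aorta against 1.06, 0.75, 1.51 and 1.29 (difference 2.14 ± 0.80 SE, adjusted p = 0.992). Eefsec had -3.30 and -2.16 against 2.43, 0.63, -1.22 and 2.58 (difference -3.84 ± 1.09 SE, adjusted p = 0.992). In both genes the ratios of the high-fat libraries did not overlap those of the chow libraries, and the interval reads overlapped. The Eefsec ratios rest on 1 and 1 junction reads against 29, 13, 6 and 10, and those of Morc3 on 67 and 17 against 3, 3, 9 and 1. Mbd2, Man2a1, Tns3 and Erbb2ip were the other named hosts above all chow libraries, and Tlk1, Smoc1, Prim2 and Neo1 those below. In Trpc6, whose interval reads rose, the groups overlapped by this ratio (difference 1.04 ± 1.34 SE, adjusted p = 0.992).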

How the data were processed

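Total aortic RNA was read as 150-base pairs, per the labels. TopHat and HTSeq and the GRCm38 build are named in the submitters' processing notes; the circRNA caller is not named in them. Per the file headers, each deposited list gives for every circRNA a count, RPM and junction column; count and junction are raw read counts, and the authors' RPM is the count per 1000000 library reads, which gave the library total. A circRNA missing from a list was taken as 0. Interval reads are count minus junction, summed per host symbol; of 7051 symbols 6220 matched RefSeq and 365 matched by 1 synonym, and 2133 circRNAs had no symbol. Rpph1, Rmrp, Rn45s and the mitochondrial chromosome were left out of totals and tests. CPM is per 1000000 TMM-scaled kept reads.

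The test was edgeR 4.0.16 (quasi-likelihood, robust; R 4.3.3) with 1 term, high-fat or chow, and 4 residual degrees of freedom, adjusted over all features with at least 5 junction or 10 interval reads in 2 libraries. Junction share used limma 3.58.1 on log2((junction + 0.5)/(interval + 0.5)), for hosts with at least 5 junction reads in 3 libraries. DESeq2 1.42.0 was an alternative. The scripts were tested on simulated data. Named features are those past 0.05, then those with both high-fat libraries beyond all chow libraries by unadjusted p: 10 per direction for interval reads, 6 for circRNAs, 5 for hosts and shares, 1 circRNA per host. List members were named where they passed, did not overlap or were among the 4 with the highest level; Hba-a2, Hbb-bt, Itgb3 and Spp1 were named with their values known. The comparison and the lists were chosen with earlier results of these data known. Depth limits junction results most: fold bounds set the mean CPM of 1 group's libraries against a floor of 3 reads over the other group. They cover counting error only. Some genes that the counts include are not reported here by name.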

Additional observations from a re-analysis of the deposited data

Results flagged for a closer look

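The circRNA of Kidins220, a scaffold of neurotrophin receptors, had 1 chow library far from the others. Its scaled junction reads (CPM) were 337 in ApoE-/- chow 1, 608 in ApoE-/- chow 2, 343 in C57BL/6J 1 and 2178 in C57BL/6J 2, so that the gap to the next library took 0.853 of the whole range, above Dixon's critical value for 4 values. The unscaled reads were 5, 9, 9 and 9, and C57BL/6J 2 has the fewest junction reads of all libraries. Of 49 chow groups tested this way 1 was picked out; chance picks out about 1 in 20.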

How the results depend on the processing

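Of 661 values of 52 named features under alternatives, 616 kept their direction and side of the threshold, 16 came to pass, 29 ceased to pass and 0 changed sign; the causes were not tested. Counts of calls moved more. For interval reads (2 genes) DESeq2 and whole-library totals each gave 4, adding Gpnmb and Lyz1, and leaving out 1 library gave 0 (without ApoE-/- chow 1) to 4 (without C57BL/6J 2), with 1 without either high-fat library. For hosts by junction reads (2) DESeq2, whole-library totals, the doubled minimum, no minimum and the replicate block each gave 0, size factors and plain totals each 4, leaving out ApoE-/- chow 1 and C57BL/6J 2 together 4 (chosen after seeing the data), and leaving out 1 library 0 to 3 (the 3 being Eefsec, Ezh2 and Tlk1 without C57BL/6J 1). Esyt2 could not be tested without high-fat 1 or ApoE-/- chow 1. For circRNAs (1) DESeq2, whole-library totals, the doubled minimum and leaving out that pair each gave 0, the replicate block 2, and leaving out 1 library 0 to 3. The single call was Tlk1 with 3 group means and Esyt2 with no minimum, in place of Eefsec. For junction share (0) it gave 0 to 1, Rad52 without high-fat 1. Whole-library totals moved the median of all features by 0.13 (interval reads), 0.54 (hosts by junction) and 0.44 (circRNAs) on the log2 scale, so values under that scaling are relative to it. Replicate numbers were no pairing: same-numbered deviations correlated at 0.005 (high-fat with ApoE-/- chow), -0.198 (high-fat with C57BL/6J) and 0.152 (both chow groups), and with the replicate block interval reads gave 3 calls. With 2 high-fat libraries and 3706 junction reads in C57BL/6J 2, differences in junction reads, large ones included, could be missed.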
